A study of Mus musculus with 8 samples.

Results

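The TREM receptors and their adaptor were followed across macrophages cultured with or without histidine-rich glycoprotein (HRG), a plasma protein. The members were the receptor genes Trem1, Trem2 and Trem3, the TREM-like receptor genes Treml2 and Treml4, and Tyrobp, which encodes the adaptor DAP12. These 6 genes, of 19938 measured, were chosen by name and selected on measured values of these same arrays, for the opposite moves of family members across the 4 groups. Their levels and differences are therefore a description, with no p-value, and which of them passed the threshold of the fit over all genes is given only beside the share of all genes that did. Each member was matched by 1 row of the array.

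TREM receptors are cell surface proteins of myeloid cells with an immunoglobulin-like domain outside the cell and a short tail inside it. Most signal through DAP12, which carries an activation motif that is phosphorylated by Src family kinases and then recruits the kinase Syk. TREM1 amplifies inflammatory cytokine production, whereas TREM2 binds lipids and lipoproteins, supports the uptake of dying cells and can restrain cytokine production in macrophages. In mice, the receptor genes lie together on chromosome 17, and Tyrobp lies on chromosome 7.

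Peritoneal macrophages were obtained by lavage from wild-type C57/Bl6 mice, and the cells of 10 mice were combined. After a night in culture, they were kept for 6 h or 24 h without further treatment (basal) or with recombinant HRG at 1 µg/ml, which gave the groups basal at 6 h, HRG at 6 h, basal at 24 h and HRG at 24 h. Each group held 2 samples, and RNA of each was hybridised to its own Affymetrix array. The labels give no age, sex or source of the protein, and all samples share 1 pool of cells, so every p-value below rests on how far these samples differ from each other, a spread that may be technical.

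Levels are log2 values after robust multi-array averaging (RMA), on which a difference of 1 is a 2-fold change. The 8 arrays had gene medians between 7.42 and 7.50, and with 2 arrays a group their number limits precision. All 10 macrophage markers measured, among them Adgre1, Csf1r and Cd68, lay above the gene median on every array. In bulk RNA, fewer cells of a type and less RNA per cell cannot be told apart. Differences are HRG minus basal, or the later time minus the earlier one, and ± marks the standard error of the fit with limma. "Rose" and "fell" are kept for genes past an adjusted p of 0.05.

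For the 3 receptor genes with the widest range of levels, the RefSeq sequence before the annotated gene start is shown, since these members moved together or apart while lying in 1 cluster. All 3 stretches come from assembly GRCm38.p6, plus strand: chr17:48232489-48232712 for Trem1, chr17:48346151-48346400 for Trem2 and chr17:48264045-48264199 for Treml4. Capitals mark GAGGAA, or TTCCTC where it lies on the other strand, the core letters bound by PU.1, a transcription factor of myeloid cells.
Trem1: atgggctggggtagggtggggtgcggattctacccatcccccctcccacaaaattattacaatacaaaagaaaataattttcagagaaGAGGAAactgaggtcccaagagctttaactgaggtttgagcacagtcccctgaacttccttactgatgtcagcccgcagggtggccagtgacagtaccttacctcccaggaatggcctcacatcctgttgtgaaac
Trem2: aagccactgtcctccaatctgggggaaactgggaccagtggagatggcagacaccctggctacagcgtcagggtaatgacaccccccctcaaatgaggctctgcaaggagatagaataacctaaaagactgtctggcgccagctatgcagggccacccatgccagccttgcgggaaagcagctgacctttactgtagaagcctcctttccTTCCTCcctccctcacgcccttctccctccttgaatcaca
Treml4: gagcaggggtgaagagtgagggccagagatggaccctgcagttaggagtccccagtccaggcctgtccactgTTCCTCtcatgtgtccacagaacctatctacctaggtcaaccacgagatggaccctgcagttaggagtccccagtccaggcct

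Each stretch held 1 match to the PU.1 core, forward in Trem1 and reverse in Trem2 and Treml4. Of 32851 RefSeq promoters read over the same lengths, 20.8% held such a match for the Trem1 length, 23.3% for the Trem2 length and 15.1% for the Treml4 length. No match to the AP-1 letters TGAGTCA or the antioxidant response letters TGACNNNGC was found in the 3 stretches on either strand. Those letters were present in 2.65% to 4.46% and in 5.52% to 10.2% of promoters at the same lengths. The Treml4 stretch contained an exact direct repeat of 39 bases, starting at positions 26 and 117, and a repeat that long was found in 0.125% of promoters over the same length. Trem3, Treml2 and Tyrobp had no entry.

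Among the activating receptors, Trem1 was the member with the widest span of group means, 1.54. Its level was 6.71 and 6.60 in basal samples at 6 h, 7.19 and 7.18 with HRG at 6 h, 6.62 and 6.89 in basal samples at 24 h, and 8.33 and 8.05 with HRG at 24 h. Both HRG groups lay above both basal groups without overlap, and the basal groups overlapped each other. HRG was accompanied by a level 0.53 ± 0.121 higher at 6 h (1.44-fold) and 1.44 ± 0.121 higher at 24 h (2.71-fold). In HRG samples, the level at 24 h was 1.01 above that at 6 h (2.01-fold). In basal samples the 24 h mean was 0.10 higher, and the sign turned to -0.04 without basal replicate 2 at 24 h. Trem1 was above the gene median of its array on 2 of 8 arrays, the HRG arrays at 24 h.

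Trem2 was lowest in basal samples at 6 h and highest with HRG at 24 h. The level was 10.06 and 9.98 in basal samples at 6 h, 10.58 and 10.34 with HRG at 6 h, 10.39 and 10.53 in basal samples at 24 h, and 11.22 and 11.04 with HRG at 24 h. HRG samples at 6 h and basal samples at 24 h had the same mean, 10.46, and overlapped, while basal samples at 6 h lay below both and HRG samples at 24 h above both. The HRG difference was 0.44 ± 0.112 at 6 h (1.35-fold) and 0.67 ± 0.112 at 24 h (1.59-fold), and the time difference was 0.44 in basal and 0.67 in HRG samples.

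Trem3, an activating receptor gene of mice, had a narrow span of 0.47. The level was 7.38 and 7.13 in basal samples at 6 h, 7.42 on both HRG arrays at 6 h, 6.86 and 7.20 in basal samples at 24 h, and 7.58 and 7.42 with HRG at 24 h. HRG samples lay above basal samples of the same time without overlap, by 0.16 ± 0.129 at 6 h and 0.47 ± 0.129 at 24 h (1.38-fold). Neither time difference separated the arrays, at -0.22 in basal and 0.08 in HRG samples. The gene was above the gene median on 1 of 8 arrays.

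The TREM-like receptors showed the opposite moves. Treml4, a receptor on certain monocytes and macrophages that binds dead cells, had 8.20 and 7.70 in basal samples at 6 h, 8.58 and 8.43 with HRG at 6 h, 8.44 and 9.36 in basal samples at 24 h, and 7.62 and 7.38 with HRG at 24 h. HRG samples lay above basal samples at 6 h and below them at 24 h, with no overlap at either time. The difference was 0.56 ± 0.239 at 6 h (1.47-fold higher) and -1.40 ± 0.239 at 24 h (2.64-fold lower). The change of the HRG difference from 6 h to 24 h was -1.96 ± 0.338. In basal samples the 24 h mean was 0.95 above that at 6 h (1.94-fold), and in HRG samples it was 1.00 below (2.00-fold).

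The basal arrays at 24 h differed by more for Treml4 than those of any other group for any member, with an SD of 0.651. Without replicate 2 of that group, the HRG difference at 24 h was -0.94 and the basal time difference 0.49, and without replicate 1 they were -1.86 and 1.41. The order of the groups was HRG at 24 h, basal at 6 h, HRG at 6 h and basal at 24 h, and the upper neighbours, HRG at 6 h and basal at 24 h, overlapped.

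Treml2, a receptor of macrophages and lymphocytes that lacks the membrane charge with which other members bind DAP12, moved the other way. The level was 8.57 and 8.67 in basal samples at 6 h, 8.14 and 8.15 with HRG at 6 h, 8.17 and 7.82 in basal samples at 24 h, and 8.52 and 8.30 with HRG at 24 h. HRG samples lay below basal samples at 6 h and above them at 24 h, again without overlap. The difference was -0.48 ± 0.124 at 6 h (1.39-fold lower) and 0.42 ± 0.124 at 24 h (1.34-fold higher), a change of 0.90 ± 0.176. Basal samples had a mean 0.63 lower at 24 h than at 6 h (1.54-fold), and HRG samples a mean 0.27 higher. Without basal replicate 2 at 24 h, the HRG difference at 24 h was 0.24. Over all genes, 3.73% had HRG arrays entirely above the basal arrays at 6 h and entirely below them at 24 h, as Treml4 did, and 3.88% the reverse, as Treml2 did.

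Tyrobp, the adaptor, was close between replicates, with SDs of 0.012 to 0.044. The level was 12.69 and 12.62 in basal samples at 6 h, 12.76 and 12.72 with HRG at 6 h, 12.90 and 12.93 in basal samples at 24 h, and 13.21 and 13.22 with HRG at 24 h. The groups followed in that order and no neighbours overlapped. The HRG difference was 0.09 ± 0.090 at 6 h and 0.30 ± 0.090 at 24 h (1.23-fold), and the time difference was 0.26 in basal samples (1.20-fold) and 0.47 in HRG samples (1.39-fold).

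**Figure D1:**
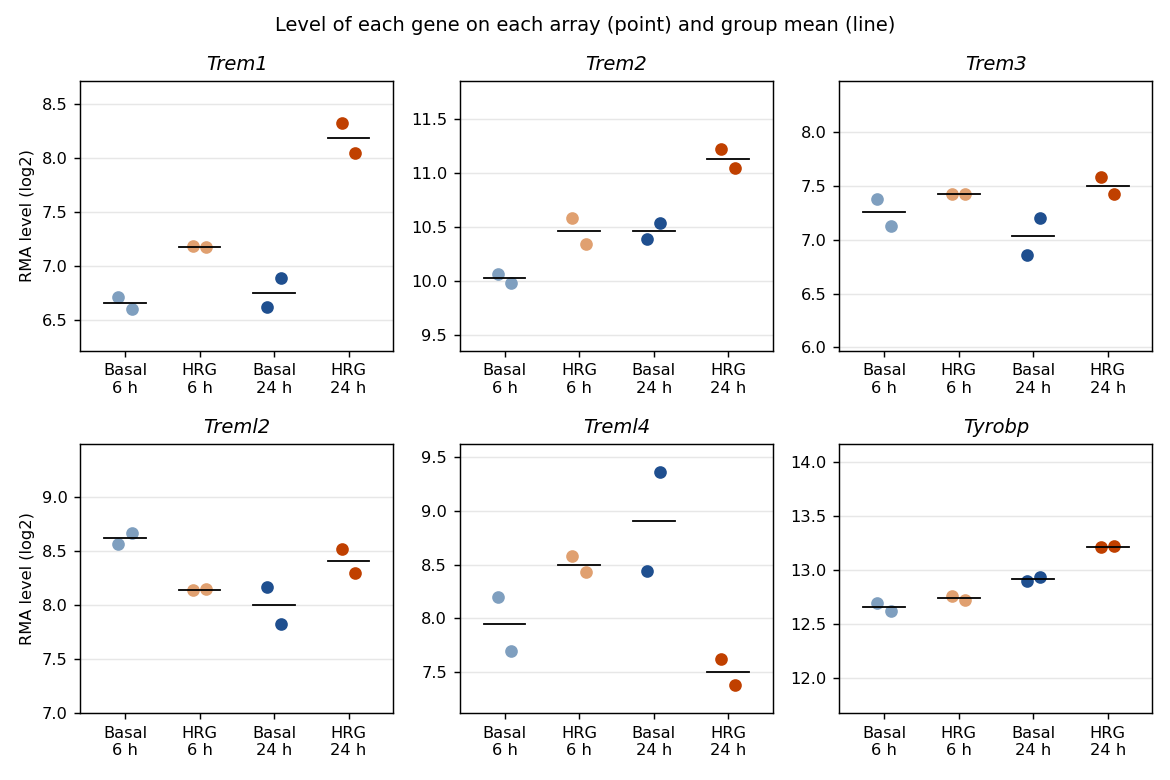
RMA level (log2) of each member on each of the 8 arrays (points) with group means (lines), in panels that cover the same width of the log2 scale. Trem1, Trem2 and Tyrobp are highest with HRG at 24 h, where Treml4 is lowest, and the 2 basal points of Treml4 at 24 h lie far apart at 8.44 and 9.36.

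Across all genes, 0.431% passed the threshold as higher and 0.818% as lower with HRG at 6 h, and no member did. At 24 h, 2.43% of genes were higher and 1.05% lower, and among the members Trem1 and Trem2 were counted as higher and Treml4 as lower. For the change of the HRG difference between the times, the shares were 1.02% upward and 0.451% downward, and Trem1 and Treml2 were counted upward and Treml4 downward. For 24 h against 6 h, the shares were 3.8% higher and 5.48% lower in basal samples, with Trem2 and Treml4 higher and Treml2 lower. In HRG samples they were 4.41% higher and 2.87% lower, with Trem1, Trem2 and Tyrobp higher and Treml4 lower. Since the members were selected on these groups, nothing is read from their counts.

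The member counts rested on single arrays in several comparisons. At 24 h, 1 member was counted without HRG replicate 1 and 2 without HRG replicate 2, in each case without Treml4. The change of the HRG difference counted 0 members without HRG replicate 1 or 2 at 6 h or HRG replicate 1 at 24 h, 1 without HRG replicate 2 at 24 h, and 2 without any one basal array. The basal time difference counted 0 members without basal replicate 2 at 24 h, 1 without basal replicate 2 at 6 h, and 2 without either other basal array. The time difference in HRG samples counted 2 members without any one HRG array. At 6 h, Trem1 was counted without either basal array of 24 h. The median difference over the 6 members was 0.30 at 6 h and 0.44 at 24 h, beside 0.02 and -0.02 over all genes. The members were selected on these groups, so nothing is read from their median either.

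Over the 8 arrays, which share pool, time and treatment, Trem1 and Trem2 correlated at r = 0.93, Trem2 and Tyrobp at 0.94, and Trem1 and Tyrobp at 0.84. Treml4 ran against Treml2 at -0.79 and against Trem1 at -0.53. These are descriptions of 8 arrays in 4 groups. Among 2187 genes whose group means spanned at least 0.5, Trem1 was most alike to Crtap, Galnt9, Rgs2 and C5ar1, with r from 0.975 to 0.983. C5ar1, the receptor for complement C5a, had group means of 10.46, 10.89, 10.68 and 11.42 in the order basal at 6 h, HRG at 6 h, basal at 24 h and HRG at 24 h. Rgs2, a regulator of G protein signalling, had 7.97, 8.32, 8.03 and 9.37 in that order. Hebp1, B3galnt1, Gbgt1 and Casp6 were most like Trem2, with r from 0.983 to 0.986. Those most like Treml4 were Tmem43, Unc5b, Psmd5 and Lancl3, with r from 0.966 to 0.983, and Unc5b, a netrin receptor, had means of 8.29, 8.52, 9.03 and 7.75.

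In RefSeq order on chromosome 17, the protein-coding genes of the cluster were 9830107B12Rik, A530064D06Rik, Trem1, Trem3, Treml4, Treml2, B430306N03Rik, Trem2 and Treml1. The Treml4 pattern recurred at A530064D06Rik, a TREM-family gene also listed as Trem4 and picked here after its values were seen. Its level was 10.32 and 9.79 in basal samples at 6 h, 10.69 and 10.77 with HRG at 6 h, 10.99 and 11.35 in basal samples at 24 h, and 10.11 and 10.04 with HRG at 24 h. HRG samples again lay above basal samples at 6 h, by 0.67 ± 0.159, and below them at 24 h, by -1.09 ± 0.159, with no overlap.

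B430306N03Rik, also listed as Treml6, had 10.30 and 9.98, 10.48 and 10.53, 10.48 and 10.78, and 10.21 and 10.00 in the same order of groups. Its HRG difference was 0.37 at 6 h (adjusted p = 0.31, limma) and -0.53 ± 0.134 at 24 h (adjusted p = 0.057, limma), neither past the threshold, with no overlap of arrays. The change between the times was past it, at -0.89 ± 0.190 (adjusted p = 0.042, limma). That call was lost without any one HRG array or without basal replicate 2 of either time, with an adjusted p of up to 0.16. The 250 bases before the start of A530064D06Rik and of B430306N03Rik were near-copies, with 242 of 247 aligned bases identical (98%), and their levels correlated at 0.97. How the probes of these genes are shared was not tested, so their separate signals are uncertain. Treml4 correlated with them at 0.93 and 0.95.

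The remaining genes of the cluster moved less. 9830107B12Rik, also picked after its values were seen, was below the gene median on all 8 arrays and had HRG differences of 0.08 at 6 h and -0.37 at 24 h. Treml1, known from platelets, had differences of 0.15 at 6 h and -0.13 at 24 h with overlapping arrays, and its group means spanned 0.18. Nfya, the next gene beyond Treml1, had differences of 0.13 and -0.15. Beside Tyrobp on chromosome 7, Hcst, which encodes the related adaptor DAP10, had -0.08 and 0.05.

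**Figure D2:**
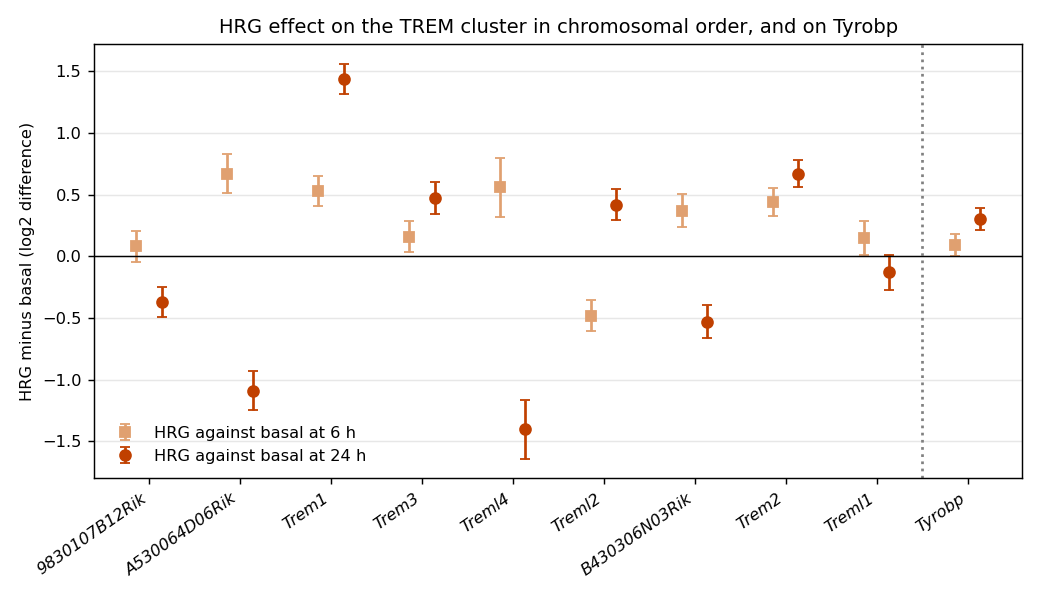
HRG minus basal (log2 difference, bars showing ± 1 standard error, n = 2 arrays a group) at 6 h (squares) and 24 h (circles) for the genes of the TREM cluster in chromosomal order, and for Tyrobp right of the dotted line. A530064D06Rik, Treml4 and B430306N03Rik lie above 0 at 6 h and below it at 24 h, and Treml2 the reverse.

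Markers of other cells moved with some members. The mean level of 9 measured B cell markers ranged from 8.43 to 8.46 in basal samples at 6 h, 8.13 to 8.14 with HRG at 6 h, 7.68 to 8.03 in basal samples at 24 h, and 8.24 to 8.46 with HRG at 24 h. Treml2 followed that mean over the 8 arrays at r = 0.97, and Treml4 ran against it at -0.84. Of the B cell markers, Cd79a, Ms4a1, Fcer2a and Cd22 rose with HRG at 24 h, Cd79a by 0.98 ± 0.159 (adjusted p = 0.0045, limma), and Cd79b fell at 6 h. Over all genes, 2.43% rose at 24 h and 0.818% fell at 6 h. The Cd79a call was lost without HRG replicate 1 at 24 h (adjusted p = 0.07), and those of Ms4a1, Fcer2a and Cd22 without HRG replicate 1 or basal replicate 2 of 24 h (adjusted p of up to 0.35). The Fcer2a and Cd22 calls were lost also without HRG replicate 2 of 24 h, that of Cd22 without either HRG array of 6 h, and that of Cd79b without any one array of 6 h or HRG array of 24 h (adjusted p of up to 0.25). In basal samples 6 of 9 fell from 6 h to 24 h, beside 5.48% of all genes. Of the 9, Cr2, Fcer2a and Vpreb3 were at or below the gene median on all arrays. The part of B cells in the Treml2 and Treml4 differences was not tested.

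Trem1 and Trem3 are also known from neutrophils. The mean of 14 neutrophil markers stayed between 7.51 and 7.68 on all arrays, and 0 of 14 passed the threshold with HRG at either time. From 6 h to 24 h, 1 rose in basal samples and 2 in HRG samples, beside 3.8% and 4.41% of all genes, and 0 fell. S100a9, Ly6g, Mpo, Elane, Ngp, Camp, Ltf, Retnlg and Cxcr2 were at or below the gene median on every array. Trem1 correlated with the neutrophil mean at 0.19 and Trem3 at -0.28. The part of neutrophils in the Trem1 and Trem3 differences was not tested. With the macrophage marker mean, which was 11.85 to 11.94 in basal samples, 11.97 to 12.04 with HRG at 6 h and 12.20 to 12.23 with HRG at 24 h, Trem1 correlated at 0.97, Trem2 at 0.91 and Tyrobp at 0.85. Of the 10 macrophage markers, Mertk rose with HRG at 6 h by 0.81 ± 0.103 (adjusted p = 0.0045, limma) and at 24 h by 0.51 ± 0.103. Fcgr1 rose at 24 h by 1.13 ± 0.157 (adjusted p = 0.0019, limma), and in basal samples it fell by 0.64 from 6 h to 24 h. The call of that fall was lost without either basal array of 6 h or basal replicate 2 of 24 h. Over all genes, 0.431% rose with HRG at 6 h and 2.43% at 24 h. Mertk and Fcgr1 enter the macrophage marker mean, whereas the median HRG difference of the 10 was 0.04 at 6 h and 0.17 at 24 h. The Mertk call at 6 h was lost without HRG replicate 2 of 6 h (adjusted p = 0.071), and that at 24 h without HRG replicate 1 or either basal array of 24 h (adjusted p of up to 0.22).

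The monocyte mean of 10 markers was 8.15 to 8.18 with HRG at 24 h and 7.77 to 7.96 on the other arrays, and correlated with Treml4 at -0.89 and with Trem1 at 0.83. Ccr2, Ace and Chil3 were at or below the gene median throughout. With HRG at 24 h, 3 of 10 rose, F13a1, Nr4a1 and Plac8, beside 2.43% of all genes. The calls of Nr4a1 and Plac8 were lost without HRG replicate 1 or basal replicate 2 of 24 h (adjusted p of up to 0.13 and 0.12, limma). The mean of 8 mast cell markers was 9.36 to 9.53 in basal samples and 9.26 to 9.35 with HRG at 6 h. At 24 h it was 8.84 to 9.09 in basal samples and 9.34 to 9.70 with HRG, and it correlated with Trem3 at 0.84. In basal samples 3 of the 8 fell from 6 h to 24 h, beside 5.48% of all genes. Of the 8, Ms4a2 was at or below the gene median on all arrays. Cpa3, Mcpt4, Mrgprb1 and Ms4a2 rose with HRG at 24 h, beside 2.43% of all genes. All 4 calls were lost without HRG replicate 1 of 24 h (adjusted p of 0.071 to 0.3, limma), those of Cpa3, Mcpt4 and Ms4a2 also without basal replicate 1, and that of Ms4a2 without basal replicate 2 of 24 h. Dendritic, T and NK, and eosinophil marker means correlated with the members between -0.73 and 0.76. With Treml2, the dendritic mean correlated at 0.76 and the T and NK mean at 0.55. Of 10 T and NK markers, Cd3g fell with HRG at 6 h by 1.11 ± 0.213 and Cd28 by 0.60. Of 10 dendritic markers, Ccr7 fell at 6 h by 0.54 and Kmo rose at 24 h by 0.69. Over all genes, 0.818% fell at 6 h and 2.43% rose at 24 h. The calls at 6 h were lost without any one HRG array, and that of Kmo without HRG replicate 1 or basal replicate 2 of 24 h. The part of these cells in the members' differences was not tested.

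**Figure D3:**
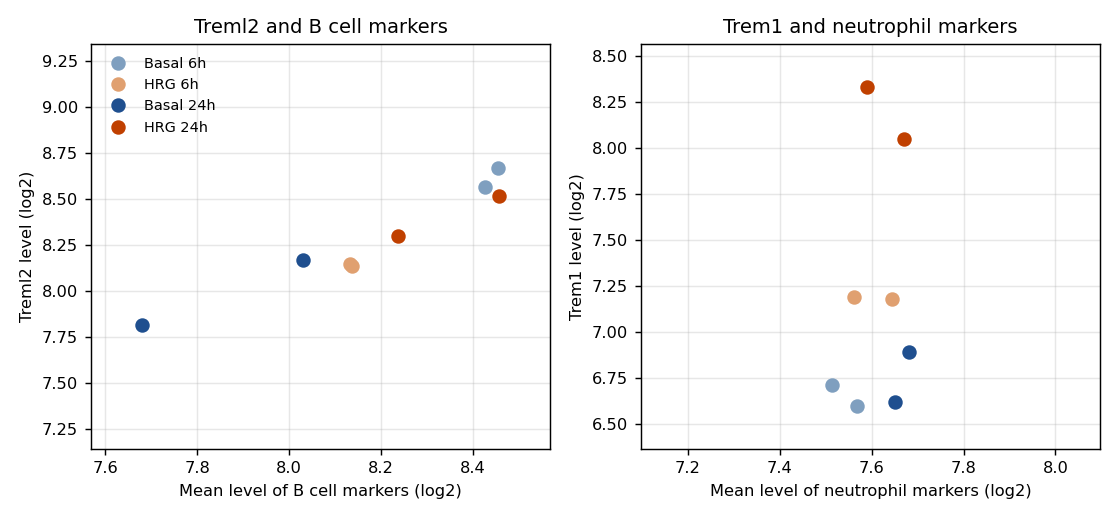
Left, Treml2 level against the mean level of 9 B cell markers on each array (both log2). Right, Trem1 level against the mean level of 14 neutrophil markers, with points coloured by group in both panels. Treml2 rises along with the B cell mean. Trem1 varies from 6.60 to 8.33 over a neutrophil mean of 7.51 to 7.68, in which 9 of the 14 markers were at or below the gene median on every array.

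Around the receptors, 138 genes of ligands, partner receptors, signalling and reported target programmes were measured, and their lists, like the members, were drawn up with earlier results of these data known. HRG raised 2 and lowered 6 of them at 6 h, and raised 19 and lowered 1 at 24 h. The shares over all genes were 0.431% and 0.818% at 6 h, and 2.43% and 1.05% at 24 h. The total of 8 at 6 h was 3 or 5 without basal replicate 1 or 2 of 6 h, 4 or 1 without HRG replicate 1 or 2 of 6 h, and 4 without either HRG array of 24 h. The total of 20 at 24 h was 7 without HRG replicate 1, and 12 without HRG replicate 2 or basal replicate 2 of that time. Of 13 ligands and sheddases, such as Apoe, Hmgb1 and Adam17, 0 passed at 6 h and 1 rose at 24 h. It was Mmp9, a gelatinase reported to cleave TREM1, by 0.80 ± 0.097 (1.74-fold, adjusted p = 0.00068, limma). In basal samples Mmp9 fell by 1.31 from 6 h to 24 h. The list median was 0.03 at 6 h and -0.02 at 24 h.

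Of 16 other receptors that use DAP12 or DAP10, 1 rose at each time. Cd300lb rose at 6 h by 0.60 ± 0.120 (adjusted p = 0.037, limma), a call lost without any one array of 6 h or either HRG array of 24 h, with an adjusted p of up to 0.24. Clec5a, a DAP12-coupled lectin, rose at 24 h by 0.71 ± 0.138 (adjusted p = 0.013, limma), lost without either HRG array or basal replicate 2 of 24 h, with an adjusted p of up to 0.11. The median difference was -0.12 at 6 h and 0.05 at 24 h. From 6 h to 24 h, 1 of the 16 rose and 2 fell in basal samples, beside 3.8% and 5.48% of all genes. In HRG samples 2 rose and 1 fell, beside 4.41% and 2.87%. Cd300lb rose with time by 1.55 ± 0.120 in basal samples and by 1.02 ± 0.120 in HRG samples.

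Of 35 genes of the DAP12 kinase cascade, 1 fell at 6 h, 2 rose at 24 h, and the rest did not pass. Fgr, a Src family kinase, rose by 0.80 ± 0.107 at 24 h (1.74-fold, adjusted p = 0.0015, limma), and Nfatc2, a calcium-driven transcription factor, by 0.82 ± 0.112 (1.76-fold, adjusted p = 0.0016, limma). Fyn, another Src family kinase, fell by 0.49 at 6 h (adjusted p = 0.032, limma), lost without any one array of 6 h or either HRG array of 24 h, with an adjusted p of up to 0.33. From 6 h to 24 h, 2 genes of the cascade rose and 6 fell in basal samples, beside 3.8% and 5.48% of all genes, and 3 rose and 2 fell in HRG samples, beside 4.41% and 2.87%. Those that fell in basal samples included Blnk, an adaptor, which fell by 0.97 ± 0.112, and Malt1, which fell by 0.83 ± 0.104.

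Of 22 inhibitors of this signalling, 0 passed at 6 h and 3 rose at 24 h. Clec12a, an inhibitory lectin, rose by 1.19 ± 0.118 at 24 h (2.28-fold, adjusted p = 0.0002, limma). In basal samples Clec12a fell by 0.93 from 6 h to 24 h, and in HRG samples its time difference of 0.23 did not pass the threshold. Cd300lf, an inhibitory receptor, rose by 0.80 ± 0.143 (adjusted p = 0.0081, limma), lost without HRG replicate 1 or basal replicate 2 of 24 h, with an adjusted p of up to 0.12. Ptpn6, the phosphatase SHP-1, rose by 0.37 ± 0.091 (adjusted p = 0.045, limma), lost without any one HRG array or either basal array of 24 h, with an adjusted p of up to 0.27. From 6 h to 24 h, 3 of the 22 rose and 3 fell in basal samples, beside 3.8% and 5.48% of all genes. Cd300lf was among those that fell, by 0.59, a call lost without basal replicate 1 of 6 h or basal replicate 2 of 24 h. Its time difference of 0.26 in HRG samples did not pass. In HRG samples 7 rose and 0 fell, where 4.41% of all genes rose and 2.87% fell.

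Of 29 genes associated with TREM2 in lipid-handling phagocytes, 1 rose and 1 fell at 6 h, and 7 rose and 1 fell at 24 h. The gene that fell at 6 h was Csf1, which is also counted below among the genes of the TREM1 response. Ccl6, a chemokine, rose at 24 h by 1.43 ± 0.236 (2.69-fold, adjusted p = 0.0053, limma), lost without HRG replicate 1 (adjusted p = 0.077). The fatty acid carriers Fabp5 and Fabp4 rose 2.12-fold (1.08 ± 0.129) and 1.72-fold (0.79 ± 0.109), and Itgax, the integrin CD11c, 1.99-fold (1.00 ± 0.110), with adjusted p from 0.00039 to 0.0019 in the limma fit. Lgals1, Timp2 and Cst7 rose by 0.63, 0.56 and 0.43. The first pair of these calls was lost without HRG replicate 1 of 24 h, with an adjusted p of up to 0.06, and the Cst7 call without any one HRG array or either basal array of 24 h, with an adjusted p of up to 0.27.

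Lipa, the lysosomal acid lipase, was the gene of that list that fell at 24 h, by 0.72 ± 0.128 (adjusted p = 0.0081, limma), lost without HRG replicate 1 or basal replicate 2, with an adjusted p of up to 0.11. Clec7a, the beta-glucan receptor, rose at 6 h by 0.63 ± 0.105, a call lost without HRG replicate 1 or 2 or basal replicate 2 of 6 h, with an adjusted p of up to 0.18. Ch25h, an oxysterol-producing enzyme, changed with time: it fell by 2.88 ± 0.135 in basal samples (adjusted p = 1.3e-06, limma). In HRG samples it fell by 2.50 ± 0.135. With time, 5 genes of the list rose and 7 fell in basal samples, beside 3.8% and 5.48% of all genes. Itgax and Cst7 were among the 7, by 0.43 and 0.67. The Itgax call was lost without either basal array of 6 h or basal replicate 2 of 24 h. In HRG samples 8 rose and 4 fell, beside 4.41% and 2.87% of all genes. The list median was 0.05 at 6 h and 0.11 at 24 h.

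Of 23 cytokines, chemokines and surface proteins of the TREM1 response, 0 rose and 5 fell at 6 h, while 5 rose and 0 fell at 24 h. At 6 h, Il12b fell by 1.20 ± 0.147 (2.29-fold, adjusted p = 0.0035, limma), Il6 by 0.94 ± 0.133, Csf2 by 0.94 ± 0.192, Cd40 by 0.71 ± 0.131 and Csf1 by 0.71 ± 0.105. The Il12b call held without each array in turn, but was at the threshold without HRG replicate 2 of 6 h (adjusted p = 0.05 after rounding). Each of the other 4 was lost without HRG replicate 2 of 6 h, with an adjusted p of 0.098 for Il6 and up to 0.36 for the rest, and the last 3 also without basal replicate 1 of 6 h. Csf2 was lost in addition without HRG replicate 1 of 6 h, and Csf2 and Cd40 without either HRG array of 24 h.

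The 5 that rose at 24 h were named after their values were seen: Cd86 by 0.52 ± 0.101, Ccl7 by 0.50 ± 0.102, Il1rn by 0.49 ± 0.100, Icam1 by 0.45 ± 0.091 and Ccl2 by 0.44 ± 0.108. Each of these calls was lost without either HRG array or basal replicate 2 of 24 h, with an adjusted p of up to 0.37. Those of Ccl7, Il1rn and Icam1 were lost also without basal replicate 1 of 24 h, and that of Ccl2 without either HRG array of 6 h. In basal samples, 12 of the 23 fell from 6 h to 24 h and 0 rose, beside 5.48% and 3.8% of all genes. Among the 12, Cd40 fell by 1.59 ± 0.131, Il10 by 1.31 ± 0.199 and Il12b by 1.24 ± 0.147. Of the 5 that rose with HRG at 24 h, Ccl7 fell in basal samples by 1.12, Il1rn by 0.77, Cd86 by 0.68 and Ccl2 by 0.62, while Icam1 did not pass. In HRG samples 4 fell and 1 rose, beside 2.87% and 4.41% of all genes. The list median was -0.27 at 6 h and -0.02 at 24 h.

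**Figure D4:**
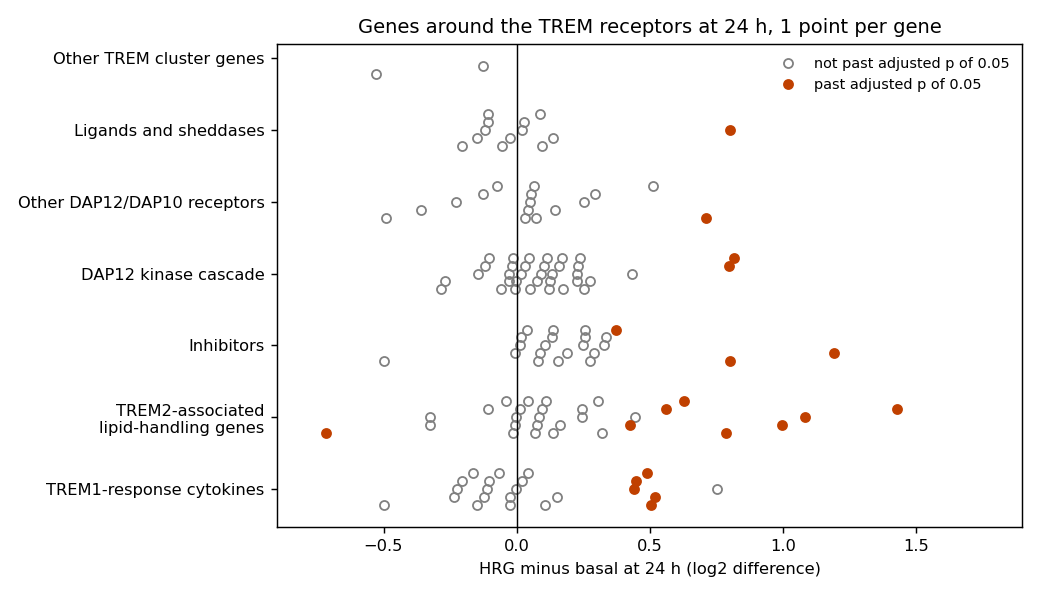
HRG minus basal at 24 h (log2 difference) for each measured gene of the 7 lists around the TREM receptors, 1 point per gene, filled where the adjusted p was under 0.05. The filled points lie right of 0 except Lipa at -0.72.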

How the data were processed

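Total RNA of 8 samples, 2 in each of 4 groups taken from the sample titles, had been measured on Affymetrix arrays. The values deposited by the authors are log2 levels made with Affymetrix Expression Console and RMA, with limma also named, per the submitters' processing notes. RMA corrects background, quantile-normalizes arrays and summarises probes. Software versions and genome build: not given in the sources used here. Probe sequences were not used here. Of 28853 rows, 21789 had 1 gene symbol in the platform annotation, 1621 several and 5443 none, and only the first kind was used. The row with the highest mean was kept for each gene, which left 19938 genes, and no filter on low values was applied.

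All 8 arrays entered a limma 3.58.1 model (R 4.3.3) with a mean for each group, 4 residual and 7.81 prior degrees of freedom, and the fit was tested on simulated data. Tests were two-sided with eBayes. The Benjamini-Hochberg adjustment covered the 19938 genes, with a threshold of 0.05. Levels are single values or means with the SD of 2 arrays, and errors of differences are standard errors of the fit.

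The members, the lists (222 of 237 entries measured) and the tests were chosen with earlier results of these data known. Named were all members, genes from among the up to 5 of each list with the largest difference past the threshold, and the measured genes of the TREM cluster. Not all of these list genes were described: Pik3cg, Clec4a2, Dok2 and Cd300a, past the threshold only for time, are among those left out. So is the dendritic marker Btla, past it also for the change of the HRG difference. Also named were, for each member spanning at least 1 on the log2 scale, the 4 genes most correlated with it, predicted genes left out. Genes outside this rule are said to be picked after their values were seen. So are the list genes Lgals1, Timp2, Cst7, Lipa, Itgax, Fabp4, Il6, Fyn and Ptpn6. The same holds for the B cell, T and NK cell, dendritic cell, monocyte, mast cell and macrophage markers. Replicate numbers mark no shared batch in the labels, and replicate differences correlated between groups at -0.331 to 0.411, so the numbers were not taken as pairing the samples. Promoter sequences and gene order are RefSeq's, assembly GRCm38.p6, whose coordinates were not applied to the array. Alternatives tried were a replicate block, renewed quantile normalization, eBayes with trend and robust, median centring, dropping the dimmest 30% of genes, averaging rows of a gene, a fit to the 4 arrays of a comparison, and the omission of each array. A covariate holding each array's lower quartile was chosen after seeing the data.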

Additional observations from a re-analysis of the deposited data

Results flagged for a closer look

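HRG was accompanied by opposite moves at 6 h and 24 h in 4 genes of the TREM cluster, with every HRG array on one side of every basal array at 6 h and on the other at 24 h. The change of the HRG difference from 6 h to 24 h was 0.90 for Treml2, -1.96 for Treml4, -1.77 for A530064D06Rik and -0.89 for B430306N03Rik. How the probes of A530064D06Rik and B430306N03Rik are shared was not tested, so they may not be separate signals. Over all genes, 3.73% moved up at 6 h and down at 24 h in this way, and 3.88% down and then up. For Treml2, Treml4 and A530064D06Rik, which were chosen for their values, no p-value is given for the change. B430306N03Rik is listed here for the same separation of arrays, so its adjusted p of 0.042 (limma) is no independent test of the pattern. With single arrays left out its change was -1.06 to -0.73, and the call was lost without any one HRG array.

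Genes of the lists differed between the times by the limma test of the difference itself. In the lists around the receptors, the change was 1.01 for Mmp9, 1.16 for Clec12a, 1.20 for Fabp5, 1.14 for Fabp4 and -1.0 for Lipa, and among the cytokine genes 0.96 for Il12b, 0.89 for Cd86, 0.78 for Ccl7, 0.71 for Csf1 and 0.58 for Icam1. Their adjusted p ran from 0.0048 to 0.049. The calls of Mmp9, Clec12a and Fabp4 held without each array in turn, with an adjusted p of up to 0.045, and that of Fabp5 was lost without HRG replicate 1 of 24 h (adjusted p = 0.053). The others were each lost without at least 3 of the single arrays. Among B cell markers, the change was 1.20 for Cd79a, 1.17 for Fcer2a, 1.17 for Ms4a1, 0.87 for Cd79b and 0.86 for Pax5. Each of these calls was lost without HRG replicate 1 of 24 h. Other marker lists also held upward calls: 3 of 8 mast cell, 2 of 10 monocyte, 2 of 10 dendritic and 1 of 10 T and NK markers. Over all genes, 1.02% passed upward. The T and NK marker was Cd3g, with a change of 1.48 ± 0.301 (adjusted p = 0.034, limma), lost without any one HRG array.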

How the results depend on the processing

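Of the 138 genes around the TREM receptors, 8 passed the threshold with HRG at 6 h, 20 at 24 h, 11 for the change between the times, 42 for time in basal samples and 31 for time in HRG samples. Over all genes, the shares higher and lower were 0.431% and 0.818% at 6 h, 2.43% and 1.05% at 24 h, and 1.02% and 0.451% for the change. For time they were 3.8% and 5.48% in basal samples and 4.41% and 2.87% in HRG samples. With eBayes trend and robust, the first 3 counts were 13, 32 and 22. Leaving out 1 array gave 1 to 9 at 6 h, 7 to 23 at 24 h, 3 to 12 for the change and 15 to 33 for time in HRG samples. At 24 h the count was 7 without HRG replicate 1, 12 without HRG replicate 2 and 12 without basal replicate 2. With a replicate block the counts were 8, 19, 12, 42 and 30, and the members counted were those without it. The replicate numbers do not pair the samples. Counts with the other alternatives stayed within 1.5 times. Of the 474 differences of members recomputed, 0 of those past the threshold turned sign, but leaving out 1 of 2 arrays moves a mean by less than the SD by construction. The fit on 4 arrays was not run for the change between times, which needs all 8. At 6 h, members were counted as higher with the lower quartile as covariate (Trem1, Trem2, Treml4), with eBayes trend and robust (Trem1, Trem2), with renewed quantile normalization (Trem2) and without dim genes (Trem1). Treml4 was no longer counted for either time difference with eBayes trend and robust, nor for time in basal samples in the fit on 4 arrays. Trem1, Trem3 and 9830107B12Rik lay below the gene median on 6, 7 and 8 of the 8 arrays, and signal over background was not analysed here.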
